A study of Mus musculus with 6 samples.

Results

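The vanins and the enzymes of coenzyme A synthesis were examined in livers lacking SIRT1. The set was chosen by gene name and held 9 genes, namely the vanins Vnn1 and Vnn3, the pantothenate kinases Pank1, Pank2, Pank3 and Pank4, and the later enzymes Ppcs, Ppcdc and Coasy. It comprised 13 of the 41174 probes of the array, and 11 of the 23591 probes that were bright enough to be tested, with at least 1 tested probe for each of the 9 genes. The names were chosen while results of the genotype comparison were already known, so the differences of these genes are given as a description without a test of their own. SIRT1 LKO livers came from male mice with a liver-specific deletion of Sirt1, an NAD-dependent deacetylase, and Control livers from male Lox mice. Both groups were 10 weeks old, chow-fed without restriction, of a 95% C57BL/6 background, and sampled at 4 pm. Each sample pooled 2 mice, giving 3 LKO and 3 Control pools from 6 mice per group, each measured on its own 1-colour array (Agilent, whole mouse genome design). The sources used here do not give what drove the deletion or which exons it removed.

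Coenzyme A carries acyl groups in fatty acid oxidation and synthesis and is made in the cell from pantothenate, vitamin B5. Pantothenate kinases catalyse the first and rate-controlling step, Ppcs adds cysteine, Ppcdc decarboxylates the product, and the bifunctional Coasy completes the molecule. Vanins act at the other end, as pantetheinases outside the cytosol that split pantetheine, a breakdown product of coenzyme A, into pantothenate and cysteamine. In liver Vnn1 and Pank1 are known targets of the fatty acid receptor PPAR-alpha, whose dependent phenotypes were the stated reason for this sampling.

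The sequences below show which stretch of transcript stood for the genes described first, since an array reports a transcript only through its probe. Each probe is 60 bases long and 30 of them are printed, 5′ to 3′, with a polyadenylation signal in capitals where the probe holds one.
Vnn1, bases 21 to 50: cgggtgtaagcaAATAAAgtgcctcttctt
Vnn3, bases 1 to 30: tgctaagtgggagtcaacttgccctggaaa
Pank1, bases 1 to 30: ggtcgagatatcagttagaaataatggtct
Pank3, bases 1 to 30: gtccttagactgttcaaatggaatatggtt
In the coordinates of the files, on mm7, the Vnn1 probe lies at chr10:23655645-23655704 on the plus strand. The Vnn3 probe lies upstream of it on the same strand at chr10:23618542-23620871, a span of 2330 bases for 60 bases of probe, so that it crosses sequence missing from the spliced transcript. The Pank1 probe lies at chr19:34512615-34512674 on the minus strand and the Pank3 probe at chr11:35639957-35640016 on the plus strand. The longest run of identical bases shared by the Vnn1 and Vnn3 probes was 6, and no 2 of the 13 probes shared a run longer than 9 on the same strand.

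Levels below are log2 intensity minus the array's own 75th percentile, and a level is compared between pools for the same probe, never between probes. The 75th percentile of the linear intensity was between 1007 and 1289 in the LKO arrays and between 1005 and 1056 in the Control arrays, and between 52.2% and 66.3% of probes passed the scanner's test for signal well above background. Precision is set by having 3 arrays per group. LKO pool 3 stood apart, because its scanner file and its column in the deposited value table differed. They lay within 1% of each other for 0.848% of single-spot probes, while for the other 5 pools they were the same to that tolerance. The files do not settle which source holds this pool, so the scanner values are given with the value table and with LKO pool 3 left out beside them. Each of the 3 slides held a single genotype, with all Control pools together and LKO pool 3 apart from LKO pools 1 and 2, so slide and genotype cannot be told apart. Sirt1 itself read -0.07, 0.09 and 0.16 in LKO pools and 0.29, 0.37 and 0.24 in Control pools by 1 probe. This probe differed by -0.24 (limma adjusted p = 0.243) and by -0.29 whether LKO pool 3 was left out or taken from the value table. The other Sirt1 probe differed by -0.02, by -0.19 with the value table, where all LKO pools lay below the Control pools, and by -0.13 without LKO pool 3. Whether either probe lies in the removed exons is unknown. Of 7 hepatocyte markers 6 were on the array, each well above background on 6 arrays. Their mean was 7.01 to 7.30 in LKO pools and 7.03 to 7.16 in Control pools. In the value table LKO pool 3 read 7.23 for this list, so that all LKO pools then lay above the Control pools.

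Vnn1 was 2.11-fold lower in LKO livers. Its signal was 1.80, 1.76 and 1.90 in LKO pools 1 to 3, against 2.86, 2.90 and 2.93 in Control pools 1 to 3. Every LKO pool lay below every Control pool, and in the scanner files the gap between the groups was wide beside the spread within either. The means were 1.82 ± 0.07 in LKO pools and 2.90 ± 0.03 in Control pools (SD, n = 3 each), a log2 difference of -1.08 with an SE of 0.09. On the linear scale the processed intensities were 3500, 3460 and 4800 in LKO pools and 7490, 7510 and 8030 in Control pools, before any scaling between arrays. In the value table LKO pool 3 read 0.34, lower than in the scanner file, which took the difference to -1.60, a 3.02-fold lower level in LKO pools. Without LKO pool 3 the difference was -1.12. With the value table the LKO pools were spread more widely, and the SE was 0.39. The size of the Vnn1 difference and the spread among LKO pools therefore depended on the source of this pool, while the separation of the groups did not. The Vnn1 difference ranked 181 from the lowest among the 23591 tested probes, and 1.61% of tested probes had a larger absolute difference.

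In bulk RNA fewer cells of a type and less RNA per cell cannot be told apart. Vnn1 is also known from kidney tubules, and of 4 kidney markers 4 were lower in LKO pools. Their mean was -5.59 to -5.09 in LKO pools and -4.75 to -4.57 in Control pools, without overlap, and -4.96 in LKO pool 3 of the value table. Slc34a1, the phosphate transporter of the proximal tubule, was not well above background on any of the 6 arrays, and 2 of the 4 markers were well above it on all 6. The largest differences were those of Slc34a1 (-1.08) and Umod (-0.84), which were too dim to be tested. Of the 2 markers well above background on all 6 arrays, Slc22a6 differed by -0.78 with the groups apart. Lrp2 differed by -0.31 with overlapping groups, or by -0.08 without LKO pool 3. Of 5 adipose markers 3 were lower in LKO pools, and the list had means of -4.78 to -4.32 in LKO pools and -4.00 to -3.43 in Control pools, with Plin1 and Lep not well above background on any array, and LKO pool 3 of the value table, at -3.97, reached the Control range. Cfd had by far the largest of these 5 differences, -3.44, while Fabp4, the adipose marker well above background on all 6 arrays, was higher in LKO pools by 0.29 and Adipoq by 0.12. The part of either list in the Vnn1 difference was not tested.

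Vnn3, the neighbouring vanin and the only other one in the set, differed much less. Its signal was 2.52, 2.41 and 2.81 in LKO pools and 2.65, 2.80 and 2.95 in Control pools. The scanner value of LKO pool 3 lay within the Control range, so the groups overlapped. The difference was -0.22 with an SE of 0.14, and it was -0.34 without LKO pool 3. With the value table, where LKO pool 3 read 2.49, the difference was -0.33 and all 3 LKO pools lay below the Control pools. Vanin 3 is also made by myeloid cells in mouse. Of 7 macrophage markers 6 were lower in LKO pools in the scanner files. The list had means of 2.46 to 2.63 in LKO pools and 2.24 to 3.03 in Control pools, which overlap, and LKO pool 3 read 3.37 for this list in the value table. Of 6 neutrophil markers on the array 4 were lower in LKO pools in the scanner files, and 1 was well above background on all 6 arrays and 3 on none. Their means were -5.82 to -5.62 in LKO pools and -6.07 to -4.91 in Control pools. In the value table LKO pool 3 read -4.51 for these markers, above the Control range. The part of these cells in the Vnn3 values was not tested.

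**Figure D1:**
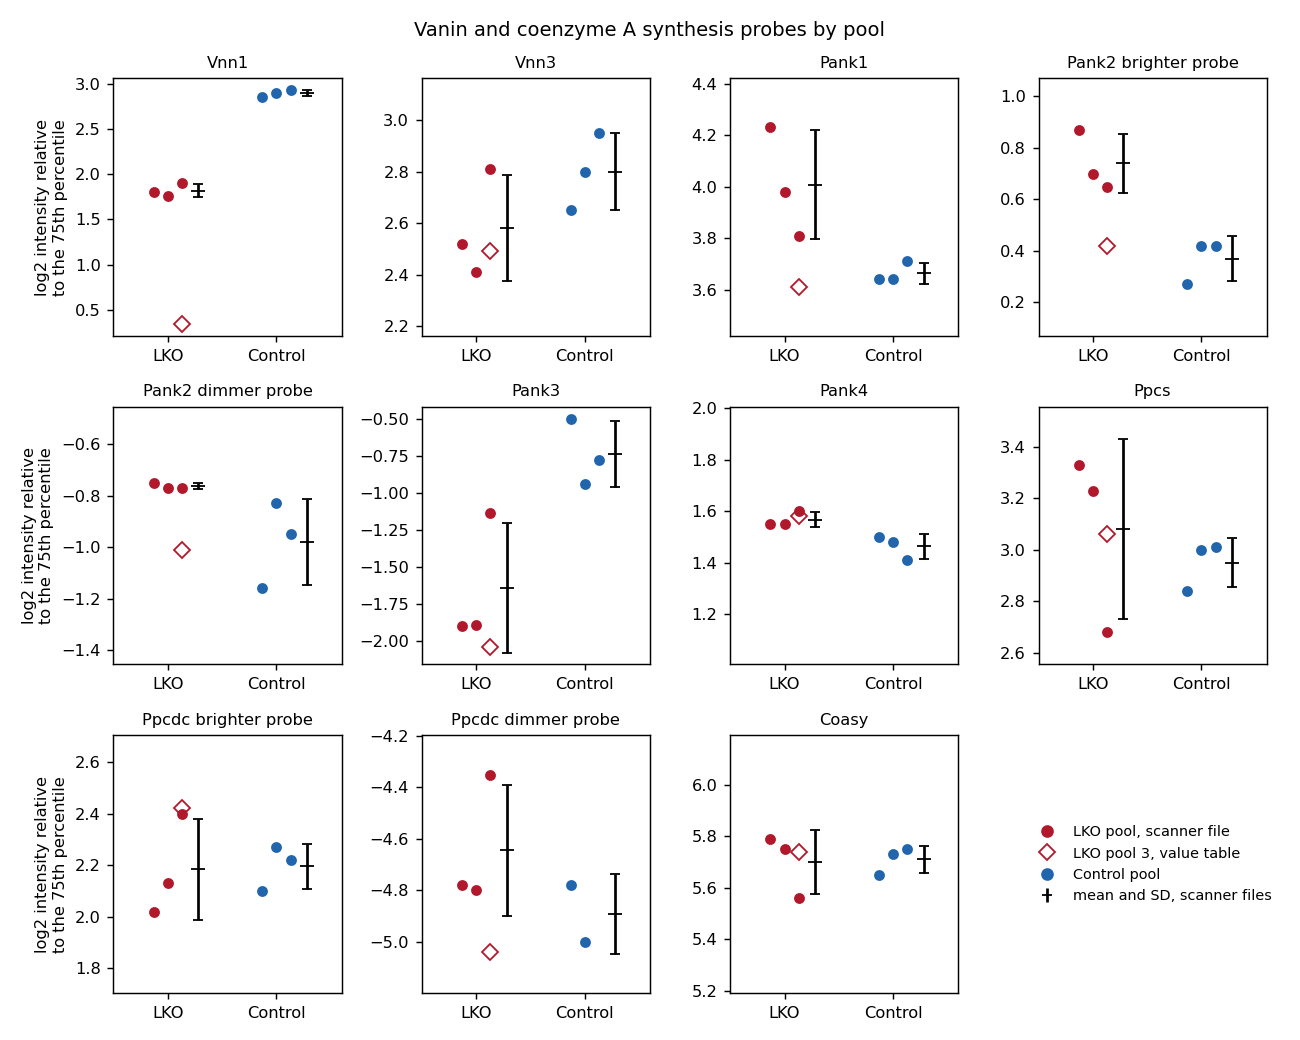
Log2 intensity relative to the array's 75th percentile (vertical axes, each panel with its own range of at least 1 unit) for the 11 tested probes, with LKO pools in red and Control pools in blue as points, LKO pool 3 of the value table as an open diamond, and mean and SD as black bars. Vnn1 and Pank3 have all LKO points below the Control points in both sources, and Pank1 and both Pank2 probes have them above in the scanner files only. The dimmer Ppcdc probe has 2 Control points, the value of Control pool 3 being an outlier spot.

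The pantothenate kinases did not all differ in one direction. Pank3 was lower in LKO livers, Pank1 and Pank2 were modestly higher, and Pank4 hardly differed. Pank3, a cytosolic kinase, had a signal of -1.90, -1.89 and -1.14 in LKO pools and -0.50, -0.94 and -0.78 in Control pools. All LKO values lay below all Control values, but LKO pool 3 was nearer to the Control range than to the other LKO pools. The difference was -0.90 with an SE of 0.24, a 1.87-fold lower level in LKO pools. In the value table LKO pool 3 read -2.04, beside LKO pools 1 and 2, and the difference was -1.20. Without LKO pool 3 it was -1.15, or 2.23-fold lower. In absolute size 2.74% of tested probes differed more than Pank3.

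Pank1, the main pantothenate kinase of mouse liver, was represented by a probe to its RefSeq transcript and by another pair of probes to cDNA clones. The transcript probe read 4.23, 3.98 and 3.81 in LKO pools and 3.64, 3.64 and 3.71 in Control pools. The LKO pools lay above the Control pools by a margin that was small at LKO pool 3, and the 1.27-fold difference (0.35 with an SE of 0.13) was exceeded in size by 25.0% of tested probes. With the value table LKO pool 3 read 3.61, below the Control pools, so that the groups overlapped and the difference was 0.28. It was 0.45 without LKO pool 3.

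The other Pank1 probes were close to background and were not tested. One, at chr19:34578765-34578824 on the minus strand, was well above background on 2 LKO arrays and 0 Control arrays and read between -5.65 and -5.38 in LKO pools and between -5.71 and -5.21 in Control pools. The other, at chr19:34582533-34582592, runs on the plus strand, opposite to the other Pank1 probes, so it carries the sequence of the opposite strand although the files name it Pank1. Its first 30 bases are printed for that reason.
Pank1, opposite strand: tcaataagcaaattctcacagatctgagcc
It was well above background on 2 LKO arrays and 1 Control array, and read -5.87, -3.85 and -5.59 in LKO pools and -4.79, -5.25 and -6.63 in Control pools. The values scattered within both groups and overlapped. In the value table LKO pool 3 read -1.75 for it, far above its scanner value.

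Pank2, whose human counterpart acts in mitochondria and is mutated in a neurodegenerative disease with brain iron accumulation, was measured by a brighter and a dimmer probe. The brighter probe (chr2:131037244-131037303) read 0.87, 0.70 and 0.65 in LKO pools and 0.27, 0.42 and 0.42 in Control pools. It was 1.29-fold higher in LKO pools, with a difference of 0.37 and an SE of 0.10. The dimmer probe (chr2:131039540-131039599) read -0.75, -0.77 and -0.77 in LKO pools and -1.16, -0.83 and -0.95 in Control pools, a difference of 0.22 with an SE of 0.11. Both probes thus had every LKO pool above every Control pool in the scanner files. With the value table the LKO pool 3 values, 0.42 and -1.01, lay at the edge of and inside the Control range, and the differences were 0.29 and 0.13.

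Pank4, a family member whose kinase domain lacks catalytic activity, read 1.55, 1.55 and 1.6 in LKO pools and 1.5, 1.48 and 1.41 in Control pools. The groups did not overlap, yet the difference was 0.10 with an SE of 0.09, and 69.8% of tested probes differed more in size.

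**Figure D2:**
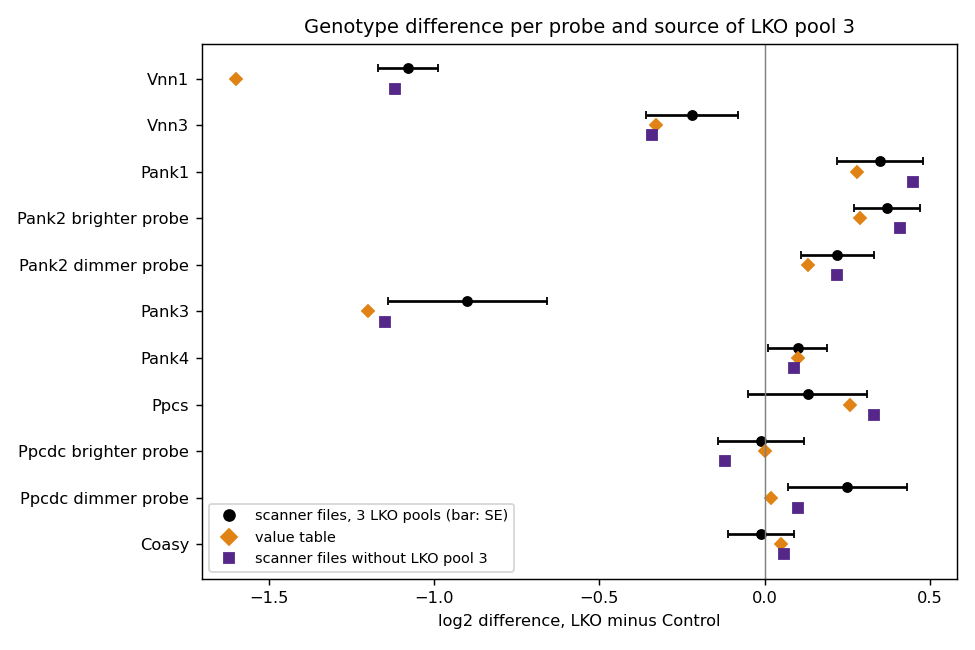
Log2 difference, LKO minus Control (horizontal axis), for each tested probe, from the scanner files with 3 LKO pools (black circles, bars show the SE of the fit), from the value table (orange diamonds) and from the scanner files without LKO pool 3 (purple squares). Vnn1 (-1.08, -1.60 and -1.12) and Pank3 (-0.90, -1.20 and -1.15) lie farthest to the left in all 3 settings. The later enzymes lie between -0.12 (bright Ppcdc probe) and 0.33 (Ppcs), both without LKO pool 3.

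The steps after the kinases showed small differences. Ppcs, phosphopantothenoylcysteine synthetase, read 3.33, 3.23 and 2.68 in LKO pools and 2.84, 3.0 and 3.01 in Control pools. LKO pools 1 and 2 were above the Control pools and LKO pool 3 below them, and the difference was 0.13 with an SE of 0.18. The value table put LKO pool 3 at 3.06, with all LKO pools then above the Control pools and a difference of 0.26. Without LKO pool 3 the difference was 0.33.

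Ppcdc, the decarboxylase, was measured by a bright probe (chr9:57441658-57441717, minus strand) and a dim one (chr9:57440868-57440927, minus strand). The bright probe read 2.02, 2.13 and 2.40 in LKO pools and 2.10, 2.27 and 2.22 in Control pools, which overlapped, with a difference of -0.01 (SE 0.13). The dim probe read -4.78, -4.80 and -4.35 in LKO pools and -4.78 and -5.0 in Control pools 1 and 2, a difference of 0.25 with an SE of 0.18. Its spot on Control pool 3 had been marked an outlier by the scanner software, with an intensity of 477 against 31.4 to 63.1 on the other arrays, and was left out of that fit. The dim probe differed by 0.10 without LKO pool 3 and by 0.02 with the value table, and with the outlier kept its sign turned, to -1.0.

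Coasy, which carries out the final pair of reactions, read 5.79, 5.75 and 5.56 in LKO pools and 5.65, 5.73 and 5.75 in Control pools. The groups overlapped and the difference was -0.01 with an SE of 0.10, with values from -0.08 to 0.06 over 17 alternative settings.

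Of the 11 tested probes 6 were higher and 5 lower in LKO pools, with a median difference of 0.10, beside 0.02 over all tested probes. The median absolute difference was 0.22 for the set and 0.19 over all. Of 10 member probes measured on all 6 arrays, 6 had groups that did not overlap in the scanner files. The groups likewise did not overlap for 28.9% of all tested probes measured on all 6 arrays. Of the 6 member probes, 4 had LKO above (Pank1, both Pank2 probes and Pank4) and 2 had LKO below (Vnn1 and Pank3). In the fit across all probes (limma, Benjamini-Hochberg adjusted p under 0.05) 1 member probe, Vnn1, was among the 15 probes called, which are 0.0636% of those tested. In the value table Pank3 was the 1 member probe among the 1.31% called, and without LKO pool 3 the 2 probes of Vnn1 and Pank3 were among the 2.96% called. Since the set was chosen with this comparison known, nothing is read from these counts. Since each array carried 1 pool, the p-values reflect variation between pools and arrays together.

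Across the 6 arrays the probes whose pattern lay nearest to that of Vnn1 were found by the root mean square difference of log2 values centred on each probe's mean. The 5 nearest genes among 23544 probes were Trim2 (0.0934), C130052G03Rik (0.103), Rdh16f2 (0.107), B230206F22Rik (0.108) and Fstl5 (0.119). Trim2 is a ubiquitin ligase and Rdh16f2 belongs to a retinol dehydrogenase family. Each had all LKO pools below all Control pools, with differences between -1.18 and -1.02. Pank3 was in place 308 by this measure (0.270) and Vnn3 in place 3576 (0.441). Likeness here rests on a shared difference between the groups. In the value table, where LKO pool 3 of Vnn1 was far lower, these genes kept differences of -1.04 to -0.90 while that of Vnn1 was -1.60.

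RefSeq windows of 250 bases before and 50 after a transcription start (GRCm38.p6) were matched for 7 of the 9 genes, 10 windows in all, and for neither Vnn1 nor Coasy. The window of Pank3 is shown up to its start because Pank3 was the kinase with the largest difference, with its CCAAT (here as its reverse complement, ATTGG) and GGGCGG (as CCGCCC) in capitals, 147 and 166 bases before the start.
Pank3, chr11:35769245-35769494, plus strand: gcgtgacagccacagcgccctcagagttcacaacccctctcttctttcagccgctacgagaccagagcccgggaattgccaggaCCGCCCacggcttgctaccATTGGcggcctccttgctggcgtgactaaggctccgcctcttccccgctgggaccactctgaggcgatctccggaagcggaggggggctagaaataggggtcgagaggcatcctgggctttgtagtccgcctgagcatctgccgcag
Searched on both strands, the half-site of nuclear receptors such as PPAR-alpha, AGGTCA, was present in 2 of the 10 windows, those of Ppcs and Ppcdc, and in 16.3% of all 32851 windows. The direct repeat of AGGTCA with any 1 base between the copies was in 0 of the 10 windows and in 0.0396% of all, and its matches include the half-site. CCAAT was in 6 of the 10 windows against 37.4% of all, and GGGCGG in 5 against 35.7%. These are letters in a short window and say nothing of binding in these livers.

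Related genes outside the set were taken from 5 lists of 40 genes, of which 39 were tested with 58 probes. None passed over all probes in limma (0 higher, 0 lower), and 9 of the 58 probes had an unadjusted p under 0.05, where 5008 of all 23591 tested probes, or 21.2%, had one. Of 10 genes of coenzyme A turnover and transport, 15 tested probes had a median difference of 0.03. Slc5a6, the sodium-dependent carrier that takes up pantothenate, read 1.6, 1.52 and 1.57 in LKO pools and 2.05, 1.93 and 1.97 in Control pools. The groups were apart and the difference was -0.42 (SE 0.09, limma adjusted p = 0.0944), or -0.58 with the value table. Nudt19, a peroxisomal hydrolase of coenzyme A, differed by 0.32 (limma adjusted p = 0.262). Nudt7, another peroxisomal hydrolase of this kind, had differences of -0.24 and -0.09 by its 2 probes, and their sign turned when LKO pool 3 was left out (0.01 and 0.12) or taken from the value table (0.06 and 0.04).

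Of 5 relatives of the vanins in the nitrilase-like enzyme family, 5 of 7 probes were higher and the median was 0.15. The smallest p-values were those of Nadsyn1, NAD synthetase, at 0.17 (limma adjusted p = 0.344) and Nit1 at 0.16 (limma adjusted p = 0.365), whose dimmer probe differed by -0.18, or by -0.35 without LKO pool 3. In the cysteamine and taurine list, 8 probes of 6 tested genes had a median of 0.00. Slc6a6, the taurine transporter, differed by -0.59 at its brighter probe (limma adjusted p = 0.135) and by 0.37 at its dimmer one, or 0.64 without LKO pool 3, so its probes disagreed. Baat, which conjugates bile acids with taurine or glycine, differed by -0.24 and -0.07 (limma adjusted p = 0.235 and 0.733), the second turning to 0.01 without LKO pool 3. Ado, the dioxygenase that oxidises the cysteamine released by vanins, differed by 0.08, or by 0.02 in either alternative for LKO pool 3.

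Among regulators, Hnf4a differed by -0.44 at a middle probe (limma adjusted p = 0.133) and by -0.08 and -0.23 at its other probes, and Ppargc1a, a coactivator, by -0.75 and -0.21 (limma adjusted p = 0.218 and 0.557), or -1.04 and -0.37 without LKO pool 3. The 12 PPAR-alpha targets used for comparison had 12 of 17 probes lower, with a median of -0.28. Pex11a, a peroxisomal membrane protein, differed by -0.68 (limma adjusted p = 0.0663). Without LKO pool 3, Pex11a (limma adjusted p = 0.0453) and the middle Hnf4a probe (limma adjusted p = 0.0492) were among the related probes lower past the threshold. With the value table a single Cyp4a10 probe was, with a difference of -0.97 (limma adjusted p = 0.0495). The other Cyp4a10 probes did not pass in that setting (limma adjusted p = 0.0645 and 0.0556). Cyp4a10, Cyp4a14, Nudt7, Ado, the adipose markers Cfd, Fabp4 and Adipoq and the kidney markers Umod, Slc22a6 and Lrp2 were named after their values were seen. The Vnn1 difference of -1.08 and the Pank3 difference of -0.90 lay below the lowest of the 58 related probes, that of Cyp4a14 at -0.84, in the scanner files with 3 LKO pools. That order did not hold otherwise, since Cyp4a14 was at -1.49 without LKO pool 3 and at -2.29 by the value table, below Vnn1 and Pank3 in both settings.

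**Figure D3:**
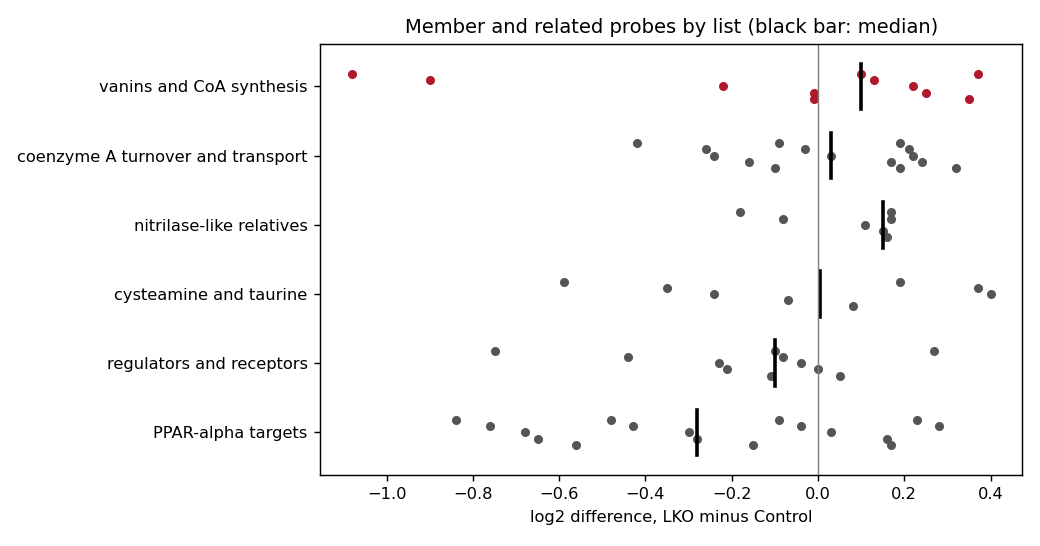
Log2 difference, LKO minus Control (horizontal axis), of each tested probe, for the 11 vanin and coenzyme A synthesis probes (red) and the 5 lists of related genes (grey), with the median as a black bar. Vnn1 and Pank3 lie at -1.08 and -0.90, while the turnover and transport probes lie between -0.42 and 0.32 and the PPAR-alpha targets between -0.84 and 0.28.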

How the data were processed

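Gene expression was measured in 6 pools of liver RNA, with 500 ng each taken into Cy3 labelling, per the labels. The authors extracted spot intensity with Feature Extraction 9.5 (Agilent; the submitters' processing notes), and per the file headers the signal used here had its background subtracted and a spatial trend removed. The deposited value table gives a linear intensity for each probe, made with the Rosetta Resolver error model, per the series' design text. Its scale equals that of the scanner files except for LKO pool 3, for which scale and centring stay unknown, and its column medians were 62.0, 62.5 and 62.6 for LKO pools and 74.5, 62.5 and 62.9 for Control pools.

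Control spots were left out, outlier spots set missing, and log2 values of repeated spots averaged, then shifted by the array's 75th percentile. Testing required a probe to be well above background on all 3 arrays of a group. Every probe was fitted on its own with limma 3.58.1 in R 4.3.3 (genotype only, two-sided, Benjamini-Hochberg threshold of 0.05), LKO minus Control, a step tested on simulated data. Symbols came from RefSeq by accession, otherwise from the files. Figures used matplotlib 3.10.9. The members and lists were chosen with earlier results of these data known.

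Named genes are the members, Sirt1, the 2 genes of smallest p in each related list and the 5 genes nearest to Vnn1, with other genes added as stated; some related genes are not reported here. Marker lists for pancreas (5 genes, means of -4.70 to -4.42 in LKO pools and -4.90 to -4.55 in Control pools) and the others were read as the mean of 1 probe per gene. Alternatives were normexp with an offset of 50, quantile normalization, median centring, other dim-probe filters, outliers kept, 1 value per gene, blocking on slide or on replicate number, a variance trend with intensity, the value table and each pool left out.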

Additional observations from a re-analysis of the deposited data

How the results depend on the processing

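Vnn1 stayed lower in all 17 alternatives, at -1.22 after normexp and -1.60 with the value table. It was between -1.12 and -1.05 when a pool was left out. Not all alternatives could move it, since Vnn1 has a single bright probe without a missing spot. Dropping the dim-probe filter, keeping outliers, 1 value per gene, the replicate block and the variance trend left it at -1.08, which is no added evidence. Pank3 ranged from -1.20 to -0.62, Vnn3 from -0.34 to -0.14, and the Pank1 and Pank2 differences stayed above 0. Ppcdc, Coasy, Ppcs and Pank4 changed sign or reached 0 in some settings. The count of probes called over the whole array, 15 (1 higher, 14 lower), was unstable. It was 0 in limma after normexp (1568 at an unadjusted p under 0.05), without a filter on dim probes (6859), with the slide as a random block (2632) and with the replicate block (4367). It was 17 (4 higher, 13 lower) after quantile normalization, 24 both with the brightest probe per gene and with the mean of a gene's probes, 49 with probes above background on all 6 arrays, 91 with an intensity trend and 308 with the value table, and 0 to 698 with a pool left out. It was 698 without LKO pool 3 and 0 without any other single pool (3188 to 4492 at an unadjusted p under 0.05). Among related genes 0 probes were called, and 1 each with the 6-array filter, the trend and the value table, and 0 to 3 with a pool left out. Deviations from the group means showed no link between pools of the same replicate number, with correlations of 0.009, -0.043 and -0.093. With so few arrays per group this cannot exclude a pairing. The dim Ppcdc and Pank1 probes are limited by background.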
